A study of Homo sapiens with 8 samples.

Results

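The mitochondrially encoded genes are the genes that lie on the mitochondrial chromosome rather than in the nucleus, and they were taken as every row of the deposited gene table whose position is on chrM. There were 24 of them among 38637 genes: 2 ribosomal RNA genes, RNR1 and RNR2, and 22 transfer RNA genes. The 13 protein-coding genes that GENCODE places on this chromosome were not analysed here.

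The mitochondrial chromosome is a small circle that is copied, transcribed and translated inside the organelle by its own machinery, nearly all of which is encoded in the nucleus. Both of its strands are transcribed as long precursors in which transfer RNAs punctuate the other RNAs, and the precursors are cut at the transfer RNA ends to release the single RNAs. RNR1 and RNR2 become the RNAs of the small and the large subunit of the mitochondrial ribosome, the transfer RNAs decode its messages, and the proteins made are core subunits of the respiratory chain. RNR2 also holds a short open reading frame for the peptide humanin.

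RNA was sequenced from 4 groups of SW1990 cells, an established human pancreatic adenocarcinoma line, with 2 libraries in each group. Vector cells carried an empty plasmid vector and EBF2-OE cells overexpressed the transcription factor EBF2, which according to the methods was introduced by transfection of a plasmid. Vehicle cells received solvent and GSK-LSD1 cells received GSK-LSD1, which blocks the histone demethylase KDM1A (LSD1), at a labelled dose of 2000 µM, whose unit was not checked because the methods name no dose for these libraries. All groups were of this 1 line, and the labels do not say whether libraries of a group came from separate cultures, so p-values measure the spread between these libraries, which may be technical. RNA was captured by its poly(A) tail, cut to fragments of about 200 bases and read from both ends over 150 bases, with a kit that does not mark strand. Epithelial KRT7, KRT8, KRT18 and MUC1 were expressed in all 8 libraries, with KRT7 at 459 to 841 TPM (a level per gene length, scaled to the same sum in each library). The epithelial markers KRT19, EPCAM and CDH1 were at 1.57 TPM or less, the fibroblast marker COL1A1 was at 30.5 to 45.2 TPM, and PTPRC, PECAM1, CD3E, ALB, INS, PRSS1 and CPA1 of other cell types were at or near 0. The overexpressed gene checked the labels: EBF2 was counted 28 times in both Vector libraries, 5818 times in EBF2-OE 2, 90100 times in EBF2-OE 3 and 24 to 40 times elsewhere. Gene counts summed to between 20453362 and 27054876 per library.

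The transfer RNA genes on which the results turn are shown first, because their shortness and their neighbours bear on how they can be counted. Each line gives the reference sequence of hg38 in the direction of the RNA, with the anticodon, the triplet that reads the codon, in capitals.
TRNM: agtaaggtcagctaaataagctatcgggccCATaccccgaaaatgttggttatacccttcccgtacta
TRNY: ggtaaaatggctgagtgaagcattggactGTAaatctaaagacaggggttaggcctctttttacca
TRNR: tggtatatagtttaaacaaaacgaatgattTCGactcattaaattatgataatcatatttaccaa
TRNS1: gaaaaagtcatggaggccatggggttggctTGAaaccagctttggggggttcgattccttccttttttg
TRNP: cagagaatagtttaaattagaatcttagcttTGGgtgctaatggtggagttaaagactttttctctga
TRNM, the methionine tRNA that serves both the start and the extension of protein chains, lies at chrM:4402-4469 on the forward strand. TRNR, the arginine tRNA, lies at chrM:10405-10469 on the forward strand. TRNY for tyrosine at chrM:5826-5891, TRNS1 for serine at chrM:7446-7514 and TRNP for proline at chrM:15956-16023 are read from the reverse strand. All 24 genes were listed at the same coordinates in GENCODE and in the deposited table.

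RNR2 dominated the counts of these 24 rRNA and tRNA genes in every library. It lies at chrM:1671-3229 and was counted 129696 times in Vector 2, 210789 in Vector 3, 150127 in EBF2-OE 2 and 193998 in the other EBF2-OE library. The compound experiment gave it 283799 counts in Vehicle 1, 323671 in Vehicle 2, 287569 in GSK-LSD1 1 and 278395 in GSK-LSD1 2. Per length it was the highest gene of the table in all 8 libraries, at 10708 to 20362 TPM. RNR1 lies at chrM:648-1601 and was counted 16014 times in Vector 2, 29202 in Vector 3, 18953 in EBF2-OE 2 and 25350 in the other EBF2-OE library. In the compound experiment its counts were 19391 in Vehicle 1, 22270 in Vehicle 2, 20772 in GSK-LSD1 1 and 20778 in GSK-LSD1 2. Its level per length was 2115 to 3396 TPM. RNR2 took 81.4% to 88.5% of a library's mitochondrial counts, and the 22 transfer RNA genes together took 5.21% to 7.52%.

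The 24 mitochondrial genes, with 0 protein-coding genes among them, together held 0.744% and 1.08% of all gene counts in Vector 2 and 3. In EBF2-OE 2 and 3 they held 0.886% and 1.04%. They held 1.29% and 1.35% in Vehicle 1 and 2 and 1.42% and 1.40% in GSK-LSD1 1 and 2. The 95% Wilson interval of a share was at most 0.00969 percentage points wide, which covers counting error only. The Vector and EBF2-OE libraries overlapped, the GSK-LSD1 libraries lay above both Vehicle libraries, and the libraries of the plasmid experiment lay below all those of the compound experiment.

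**Figure D1:**
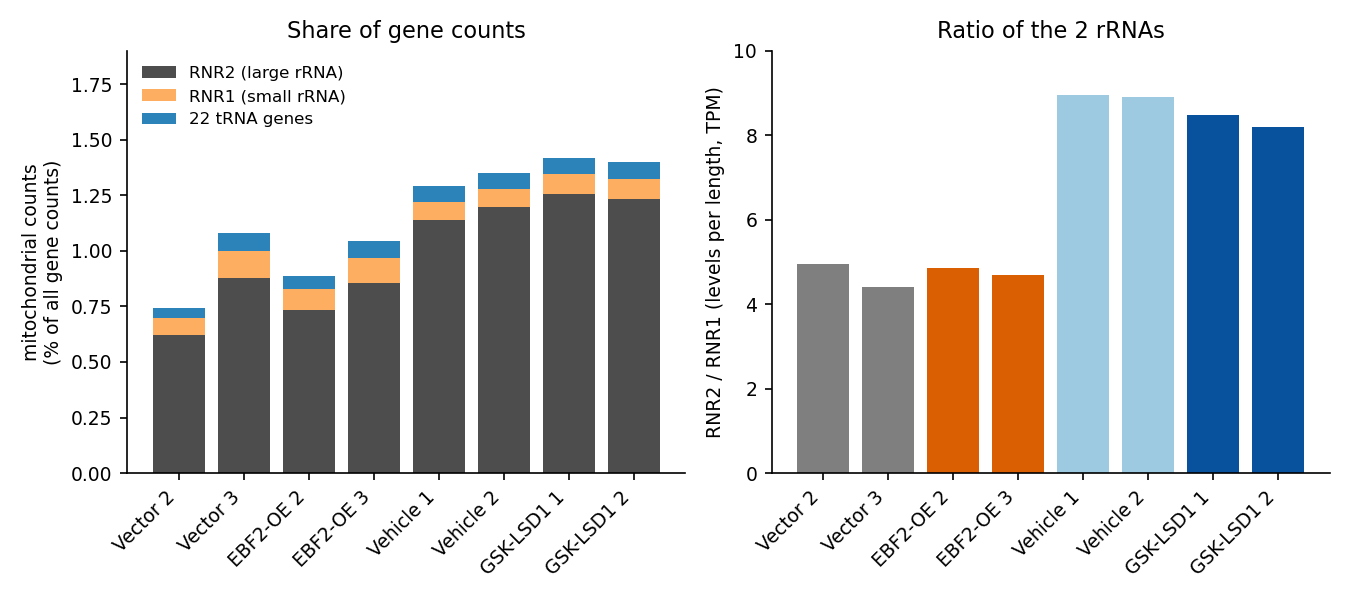
Left, the mitochondrial genes as a percentage of all gene counts in each of the 8 libraries, stacked by RNR2, RNR1 and the 22 tRNA genes. Right, the level of RNR2 divided by that of RNR1, both per length in TPM; it lies between 4.42 and 4.96 in the 4 libraries of the plasmid experiment and between 8.20 and 8.96 in the 4 libraries of the compound experiment.

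The balance of the ribosomal RNAs differed between the experiments more than within them. The ratio of RNR2 to RNR1, per length, was 4.96 and 4.42 in Vector 2 and 3 and 4.85 and 4.68 in EBF2-OE 2 and 3. It was 8.96 and 8.89 in Vehicle 1 and 2 and 8.47 and 8.20 in GSK-LSD1 1 and 2. The mean was 4.69 ± 0.381 in Vector against 8.92 ± 0.0440 in Vehicle (SD, n = 2 libraries each).

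The transfer RNA genes fell into 2 ranges that followed their neighbours. TRNV, TRNQ, TRNA, TRNN, TRNC and TRNS2, which have a listed ribosomal or transfer RNA gene within 150 bases on both sides, had 0 to 46 counts, or 0 to 65.6 TPM. TRNF, the phenylalanine tRNA between RNR1 and the control region, had 1 to 5 counts, or 1.35 to 8.22 TPM. The other 15 transfer RNA genes had 67 to 6701 counts, or 107 to 9336 TPM. TRNV, the valine tRNA that is also built into the large mitochondrial ribosomal subunit, lies between RNR1 and RNR2 and had 0 counts in all 8 libraries, where 3 counts, the limit that a count of 0 allows, would be at most 0.147 CPM (counts relative to the library's sum). At 59 to 75 bases every transfer RNA gene was shorter than 1 read. How reads that touch several genes were counted is not given in the sources used here, and its part in these ranges was not tested.

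**Figure D2:**
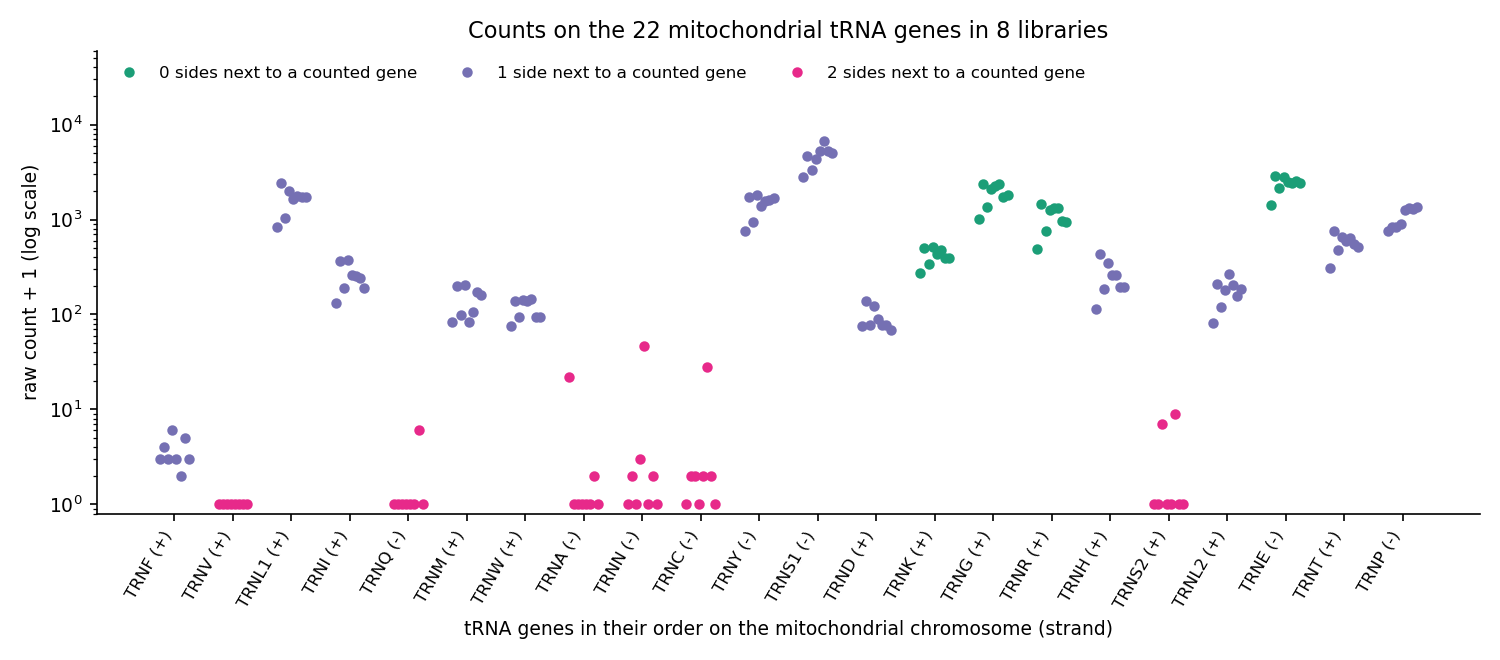
Raw counts plus 1, on a log scale, of the 22 mitochondrial tRNA genes in their order on the chromosome, with 1 point per library; signs give the strand, and colours give on how many sides a listed rRNA or tRNA gene lies within 150 bases. All 6 genes with listed neighbours on both sides had 46 counts or fewer, while TRNK, TRNG, TRNR and TRNE, with none, had 274 to 2856.

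A pair of clusters shows this arrangement, with the almost uncounted gene in capitals, on the forward strand of hg38. In the cluster at chrM:4263-4469, TRNI for isoleucine, TRNQ for glutamine and TRNM follow each other, and TRNQ, which is read from the opposite strand, shares 3 bases with TRNI.
TRNI-TRNQ-TRNM: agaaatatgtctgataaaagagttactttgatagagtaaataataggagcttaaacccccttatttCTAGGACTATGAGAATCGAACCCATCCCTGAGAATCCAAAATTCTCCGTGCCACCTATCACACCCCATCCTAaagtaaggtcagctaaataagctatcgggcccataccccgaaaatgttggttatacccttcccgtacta
TRNI had 130 to 373 counts and TRNM had 82 to 201, whereas TRNQ had 5 counts in GSK-LSD1 1 and 0 in the other 7 libraries. In the cluster at chrM:12138-12336, TRNH for histidine, TRNS2 for serine and TRNL2 for leucine abut without a gap.
TRNH-TRNS2-TRNL2: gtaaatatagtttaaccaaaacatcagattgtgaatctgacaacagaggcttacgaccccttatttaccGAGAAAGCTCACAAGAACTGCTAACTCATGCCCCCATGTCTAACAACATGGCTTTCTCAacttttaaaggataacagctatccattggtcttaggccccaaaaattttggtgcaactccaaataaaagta
TRNH had 112 to 430 counts and TRNL2 had 81 to 265, whereas TRNS2 had 0 to 8. The outer genes of each cluster border a protein-coding gene on their other side.

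TRNS1 had the highest mean count of the transfer RNA genes, followed by TRNE for glutamate and TRNG for glycine. For TRNS1 the libraries of Vector held 2836 and 4677 counts, those of EBF2-OE 3347 and 4379, those of Vehicle 5316 and 6701 and those of GSK-LSD1 5227 and 5026. TRNE, at chrM:14674-14742 on the reverse strand, had 1432 to 2856 counts, and TRNG, at chrM:9991-10058 on the forward strand, had 1012 to 2390. TRNS1 lies against the end of MT-CO1, which runs on the opposite strand. Without strand, reads of a transfer RNA and of a precursor running the other way through it cannot be told apart.

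The 10 MTRNR2L genes, nuclear copies of RNR2, had 6 to 23 counts together in a library, and 5 of them had 0 in all 8. Counts on other nuclear copies of mitochondrial sequence were not examined. MTRNR2L2 had the highest mean, with 4 to 20 counts, followed by MTRNR2L8 with 0 to 3 and MTRNR2L3 with 0 to 3. None of the 150-base stretches of RNR2 occurred identically in the nuclear chromosomes of hg38, whereas 10.4% of those of RNR1 and 25.2% of those overlapping TRNS1 did. For TRNY the share was 15.3%, for TRNM it was 5.99%, and for TRNE, TRNG, TRNR and TRNP it was 0%.

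Of the 24 genes, 17 had enough counts for a test in each comparison, namely both ribosomal RNA genes and the 15 transfer RNA genes of the higher range. A gene was called at a Benjamini-Hochberg adjusted p under 0.05 and a fold change above 1.5 by edgeR's quasi-likelihood test on raw counts over all genes tested. Levels in CPM were normalized with edgeR's TMM factors.

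Within Vector and within EBF2-OE, nearly all tested mitochondrial genes lay higher in the library numbered 3 than in that numbered 2. The share of all genes that did so was not counted. Levels were taken here as counts relative to each library's sum, without TMM factors. The level in Vector 3 divided by that in Vector 2 had a median of 1.94 over the 17 genes. The ratio ranged from 0.953 to 3.33 and was above 1 for 16 of them. For EBF2-OE 3 against EBF2-OE 2 the median was 1.37, with a range of 0.964 to 1.87, and 16 of 17 were above 1. In both pairs the exception was TRNP. For Vehicle 2 against Vehicle 1 the median was 0.972, with 6 of 17 above 1, and for GSK-LSD1 2 against GSK-LSD1 1 it was 1.00, with 9 of 17 above 1. TRNH differed most within a group, with 112 counts in Vector 2 and 430 in Vector 3.

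**Figure D3:**
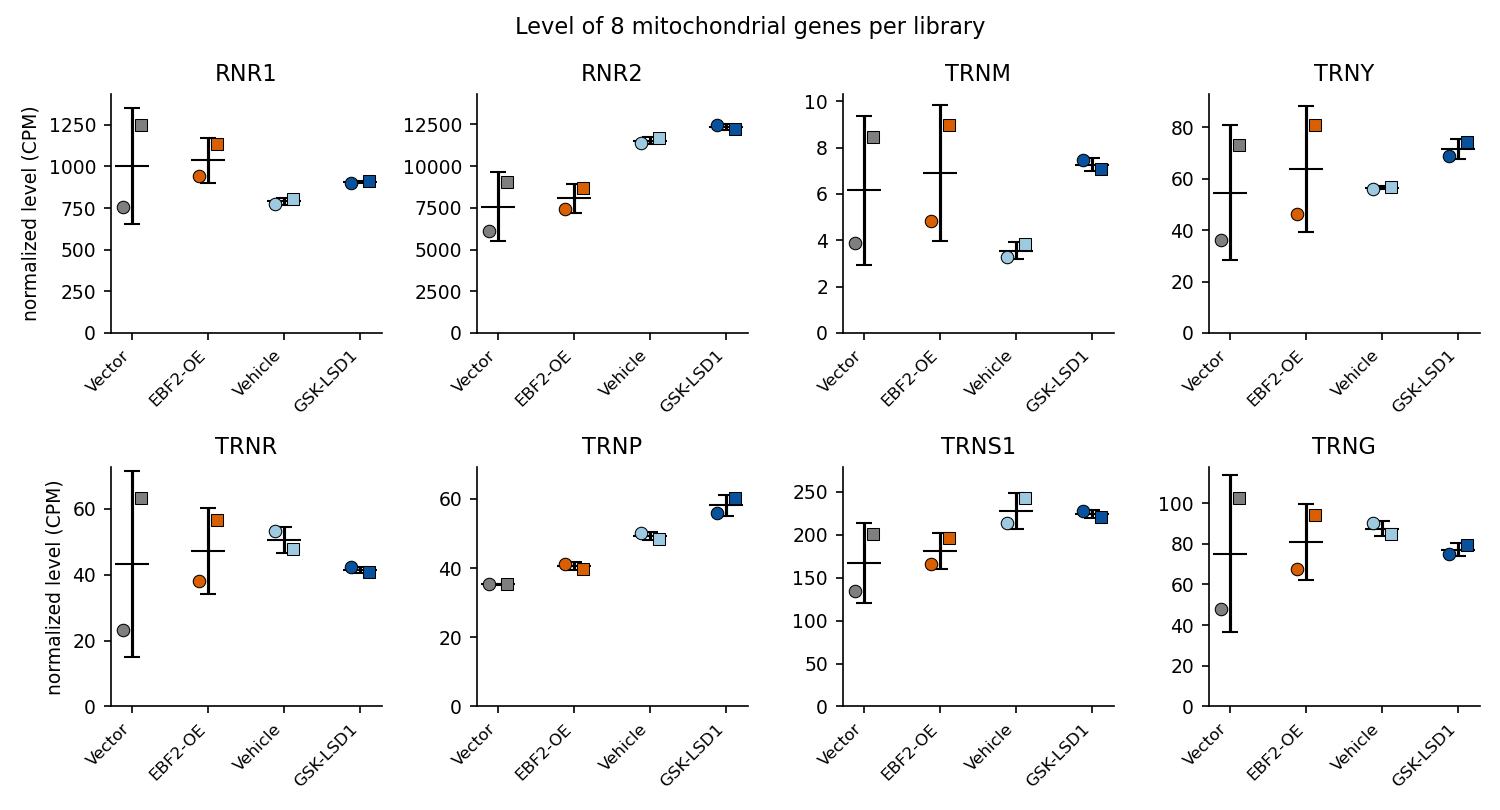
Levels of 8 mitochondrial genes in CPM, normalized over all 8 libraries, with 1 point per library (circle, the lower replicate number; square, the higher), the group mean as a bar and its SD as whiskers (n = 2). In Vector and EBF2-OE the squares lie above the circles for every gene shown but TRNP.

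EBF2-OE was compared with Vector to ask what raised EBF2 did to the cells' RNA. No mitochondrial gene was called higher or lower among the 17 tested, and of all 15560 genes 0% were called in either direction by this edgeR test. The lowest adjusted p of any gene was 0.208 by edgeR. EBF2 itself was thus not called, at 28 counts in each Vector library and 5818 and 90100 in the EBF2-OE libraries. The lack of calls therefore does not show that raised EBF2 left these genes unchanged. At an unadjusted p under 0.05 with the same fold limit, 0.733% of all genes were higher and 0.219% lower, with 0 mitochondrial genes among them. By DESeq2, 0 mitochondrial genes were called, beside 6 higher and 1 lower among all genes. RNR1 was at 1030 ± 142 CPM in EBF2-OE and 990 ± 335 in Vector, a log2 fold change of 0.06 with a standard error of 0.24. RNR2 was at 8007 ± 914 CPM in EBF2-OE and 7477 ± 1945 in Vector (SD, n = 2 libraries each), a log2 fold change of 0.10 with a standard error of 0.19. For both rRNAs the EBF2-OE libraries lay between the Vector libraries.

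The log2 fold changes of the 17 genes in EBF2-OE ran from -0.01 for TRND, the aspartate tRNA, to 0.31 for TRNE, with a median of 0.14, beside a median of 0.00 over all genes tested. They were above 0 for 16 of 17 genes and for 50.9% of all genes. The 17 share libraries and precursors and are not independent. TRNP alone did not overlap between the groups, as its counts were 750 and 824 in the Vector libraries and 832 and 890 in those of EBF2-OE. Its level was 40.2 ± 0.774 CPM in EBF2-OE and 34.9 ± 0.478 in Vector, a log2 fold change of 0.20 with a standard error of 0.13. Over all genes, 12.1% had both EBF2-OE libraries above both Vector libraries and 10.8% had both below. The adjusted p of every mitochondrial gene was 1 by edgeR with Benjamini-Hochberg adjustment. Without Vector 2 the median log2 fold change of the 17 genes was -0.25, without Vector 3 it was 0.79 and without EBF2-OE 3 it was -0.11, so its sign changed with the library left out.

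GSK-LSD1 was compared with Vehicle to ask what inhibition of KDM1A did to the cells' RNA. TRNM was the only mitochondrial gene called. Its counts were 82 in Vehicle 1, 106 in Vehicle 2, 172 in GSK-LSD1 1 and 161 in GSK-LSD1 2. Both treated libraries lay above both controls. The level was 7.34 ± 0.274 CPM in GSK-LSD1 and 3.60 ± 0.398 in Vehicle (SD, n = 2 libraries each), a log2 fold change of 1.02 with a standard error of 0.15 and an adjusted p of 0.00118 by edgeR with Benjamini-Hochberg adjustment. The Vector libraries held 82 and 197 counts of TRNM and the EBF2-OE libraries 97 and 201. Relative to each library's sum, the level of TRNM differed 2.08 and 1.87 times within those groups. In 1 fit over all 8 libraries, which gives all groups a common spread, the log2 fold change of TRNM was 1.03 and its adjusted p was 0.309, and over the 10 alternatives with an adjusted p the values ran from 1.62e-07 to 0.309. Of the 16059 genes tested, 2.53% were called higher and 2.04% lower, beside 1 and 0 of the 17 mitochondrial genes.

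With no fold limit, 7 mitochondrial genes were higher and 1 was lower at an adjusted p under 0.05, where 9.86% of all genes were higher and 8.87% lower. The other 6 that rose were RNR1, RNR2, TRNL1, TRNY, TRNE and TRNP, each by less than 1.5 times. By DESeq2, 4 of these 8 genes passed, namely TRNM, RNR1, TRNY and TRNR. RNR2 had an adjusted p of 0.292 by DESeq2, TRNE 0.0967, TRNP 0.0928 and TRNL1 0.0895. The share of all genes passing by DESeq2 with no fold limit was not counted. With the fold limit, DESeq2 called 1.89% of all genes higher and 1.17% lower. On leaving out each library in turn, edgeR's log2 fold changes ran from 0.17 to 0.22 for RNR1, 0.076 to 0.12 for RNR2 and -0.37 to -0.21 for TRNR. RNR1 was at 916 ± 8.79 CPM in GSK-LSD1 and 800.2 ± 21.6 in Vehicle, a log2 fold change of 0.19 with a standard error of 0.04 and an adjusted p of 0.00933 by edgeR with Benjamini-Hochberg adjustment. RNR2 was at 12469 ± 169 CPM in GSK-LSD1 and 11671 ± 258 in Vehicle, a log2 fold change of 0.10 with a standard error of 0.03 and an adjusted p of 0.0275 by the same edgeR test. The ratio of RNR2 to RNR1 was 8.34 ± 0.193 in GSK-LSD1 and 8.92 ± 0.0440 in Vehicle (SD, n = 2 libraries each), per length, with both treated libraries below both controls.

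Counts of TRNY were 1403 and 1576 in the Vehicle libraries and 1589 and 1695 in the GSK-LSD1 libraries, which held fewer counts in all. TRNY rose by 0.34 on the log2 scale, with a standard error of 0.06 and an adjusted p of 0.00451 by edgeR with Benjamini-Hochberg adjustment. TRNP rose by 0.24 on the log2 scale, with a standard error of 0.07, and TRNL1, the leucine tRNA that follows RNR2, rose by 0.21, with a standard error of 0.06. TRNE rose by 0.21 with a standard error of 0.06, and at an adjusted p of 0.0455 by the same edgeR test it lay nearest to the threshold.

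TRNR was the member that fell. It was counted 1331 and 1321 times under Vehicle and 971 and 930 times under GSK-LSD1, and its libraries did not overlap. The level was 41.9 ± 0.884 CPM in GSK-LSD1 and 51.1 ± 3.89 in Vehicle, a log2 fold change of -0.29 with a standard error of 0.07 and an adjusted p of 0.0193 by edgeR with Benjamini-Hochberg adjustment. TRNG, which lies between MT-CO3 and MT-ND3, was counted 2249 and 2342 times under Vehicle and 1722 and 1808 times under GSK-LSD1. Its log2 fold change came to -0.18 (standard error 0.06), and its adjusted p of 0.0574 by the same edgeR test did not pass. TRNW, the tryptophan tRNA, was counted 138 and 144 times under Vehicle and 93 and 92 times under GSK-LSD1, with a log2 fold change of -0.41, a standard error of 0.15 and an adjusted p of 0.0828 by edgeR. For TRNS1 it came to -0.03 (standard error 0.06).

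Read by overlap alone, 7 of the 17 genes had both GSK-LSD1 libraries above both Vehicle libraries, where 30% of all genes did, and 5 had both below (TRNG, TRNH, TRNK, TRNR and TRNW), where 30.2% of all genes did. The median log2 fold change of the 17 genes was -0.02, beside -0.01 over all genes tested. The tested transfer RNA genes of the reverse strand, TRNY, TRNS1, TRNE and TRNP, had log2 fold changes of -0.03 to 0.34. Of these 4, 3 passed the adjusted p as higher. Of the 11 on the forward strand, 2 passed as higher and 1 as lower, with values from -0.41 to 1.02 and a median of -0.05. Of all genes, 9.86% passed as higher and 8.87% as lower. Strand here is that of the gene, as the reads carry none, and a difference between the strands was not tested. In the fit over all 8 libraries, 0 of the 17 genes passed in this comparison. With the fold limit, that fit called 0.513% of all genes higher and 0.0906% lower.

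**Figure D4:**
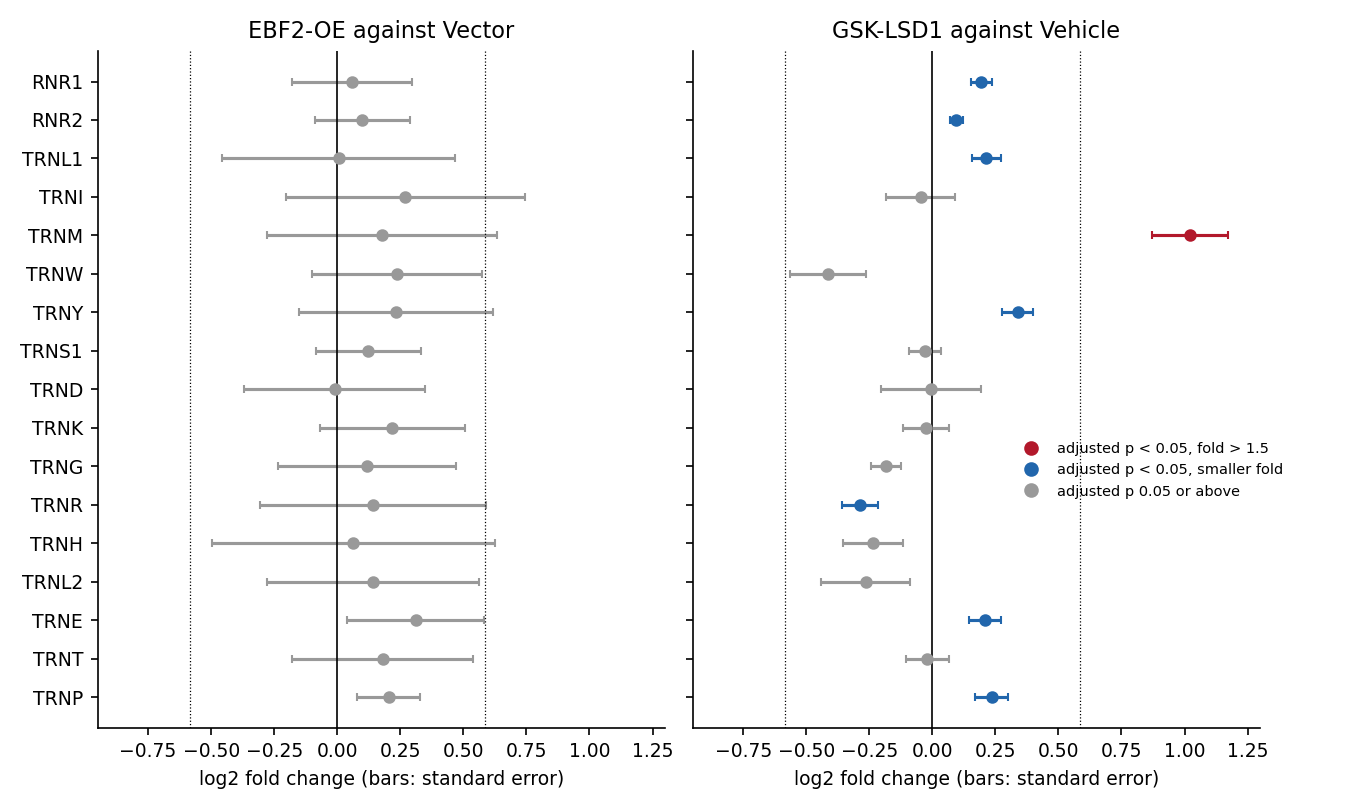
The log2 fold change of each of the 17 tested mitochondrial genes, with its standard error, for EBF2-OE against Vector (left) and GSK-LSD1 against Vehicle (right), in gene order; dotted lines mark a 1.5-fold change. No gene passes an adjusted p of 0.05 on the left, where the standard errors are 0.13 to 0.56; on the right TRNM passes it beyond the dotted line and 7 genes pass it within.

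The precision of both comparisons differed. The coefficient of biological variation, which edgeR fits over all genes, was 19.0% for EBF2-OE against Vector and 5.87% for GSK-LSD1 against Vehicle. Whether a gene's response to EBF2 and to GSK-LSD1 differed was tested directly in 1 fit over all 8 libraries. No mitochondrial gene passed at any fold, as did 0% of the 16558 genes tested, by the edgeR test. At an unadjusted p under 0.05, 0 of the 17 genes and 7.66% of all genes passed by edgeR. By DESeq2 0 of the 17 were called, beside 36 higher and 54 lower among all genes. For TRNM the difference of the log2 fold changes was -0.86 with a standard error of 0.54 and an adjusted p of 0.777, and for TRNW it was 0.63 with a standard error of 0.38 and an adjusted p of 0.758. For RNR2 it was -0.01 with a standard error of 0.23.

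The control groups, Vector and Vehicle, differed in carrying a plasmid or a solvent and in the experiment they belonged to, and these cannot be told apart. The share of gene counts on mitochondrial genes was 0.911% ± 0.236 in Vector and 1.32% ± 0.0435 in Vehicle (SD, n = 2 libraries each), or 0.690 times that in Vehicle, and the libraries did not overlap. RNR2 was at 7590 ± 1987 CPM in Vector and 11595 ± 251 in Vehicle, a log2 fold change of -0.61 with a standard error of 0.17 and an adjusted p of 0.0501 by edgeR with Benjamini-Hochberg adjustment, which did not pass. By DESeq2 and in the fit over all 8 libraries RNR2 did pass as lower, and over 9 alternatives its adjusted p ran from 4.95e-06 to 0.170. RNR1 was at 1005 ± 341 CPM in Vector and 795 ± 21.1 in Vehicle, a log2 fold change of 0.34 with a standard error of 0.22 and an adjusted p of 0.288 by edgeR. Without RNR2, the mitochondrial share was 0.161% in Vector and 0.152% in Vehicle, on average.

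TRNP, with the 750 and 824 counts given above in Vector, was counted 1251 and 1338 times in the Vehicle libraries. It fell by 0.48 on the log2 scale, with a standard error of 0.09 and an adjusted p of 0.0178 by edgeR with Benjamini-Hochberg adjustment, and was the only mitochondrial gene past the adjusted p at any fold. Of the 17 genes 0 were called, beside 5.79% of all 16019 genes tested higher and 10.2% lower. With no fold limit, 0 and 1 of the 17 passed, beside 13.6% of all genes higher and 13.2% lower. The calls of mitochondrial genes depended on the Vector libraries, and those over all genes depended on the libraries of both control groups. Without Vector 2 the median log2 fold change of the 17 genes was 0.36, and without Vector 3 it was -0.65. Leaving out Vehicle 1 gave -0.02 and leaving out Vehicle 2 gave -0.05, beside -0.02 with all 4 libraries. With 1 library left in a group, the spread comes from the other group alone, and counts of calls are not given.

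RNAs that lack a long poly(A) tail moved between the same libraries. The 11 such RNAs listed, among them the ribosomal precursor RNA45SN1 and the signal recognition particle RNAs RN7SL1 and RN7SL2, summed to 532 and 265 CPM in Vector 2 and 3 and 349 and 371 CPM in EBF2-OE 2 and 3. They summed to 1201 and 1178 CPM in Vehicle 1 and 2 and to 2320 and 788 CPM in GSK-LSD1 1 and 2. In GSK-LSD1 1, RPPH1, the RNA of nuclear RNase P, had 1805 counts against 5 to 17 in the other libraries. Replication-dependent histone genes, whose messages also lack the tail, summed to 588 to 957 CPM. The 4 libraries of the compound experiment had both the higher mitochondrial shares and the higher sums of the listed RNAs, whose part in the mitochondrial values was not tested. In bulk RNA, fewer cells of a type and less RNA per cell cannot be told apart, nor can fewer mitochondrial genomes and less RNA from each.

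The nuclear genes that serve the mitochondrial genome were read from a list of 42 genes, all of which were tested. They were factors for its replication, transcription, RNA processing and decay, and regulators of the genes of those factors. In EBF2-OE against Vector 0 of them were called by edgeR, with a median log2 fold change of -0.05 beside 0.00 over all genes. In GSK-LSD1 against Vehicle 1 was called higher and 0 lower, beside 2.53% and 2.04% of all genes, with a median of 0.03 beside -0.01. It was PPARGC1A, one of the listed regulators and a coactivator of mitochondrial gene programmes. It was counted 72 and 101 times under Vehicle and 151 and 160 times under GSK-LSD1. PPARGC1A rose by 1.05 on the log2 scale, with a standard error of 0.16 and an adjusted p of 0.00173 by edgeR with Benjamini-Hochberg adjustment. The Vector libraries held 112 and 178 counts of it and the EBF2-OE libraries 60 and 165.

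In Vector against Vehicle, 7 of the 42 listed genes were called higher and 1 lower, beside 5.79% and 10.2% of all genes. Their median log2 fold change was 0.33, beside 0.00 over all genes. Among the higher were PPARGC1A by 0.98, PDE12, which removes adenosine tails from mitochondrial RNA, by 0.80, and SLIRP, a partner of the RNA-stabilizing protein LRPPRC, by 0.76, on the log2 scale. POLRMT, the mitochondrial RNA polymerase, was the lower one, counted 2827 and 2421 times in the Vector libraries and 4899 and 4961 times in the Vehicle libraries, a log2 fold change of -0.67 with a standard error of 0.14. Under GSK-LSD1 POLRMT had 3232 and 3172 counts, a log2 fold change of -0.43 against Vehicle with a standard error of 0.06, which passed the adjusted p (0.000554 by edgeR) but not the fold limit.

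The nuclear-encoded subunits of the respiratory chain, which assemble with the proteins made in mitochondria, numbered 91 in the table, of which 85 were tested. In EBF2-OE against Vector 0 were called, with a median log2 fold change of 0.07 beside 0.00 over all genes. In GSK-LSD1 against Vehicle 0 were called, but with no fold limit 46 were higher and 1 was lower at the adjusted threshold of edgeR, beside the 9.86% and 8.87% of all genes given above, with a median of 0.21 beside -0.01. In Vector against Vehicle 1 was called higher, the complex I subunit NDUFB2 by 0.72 on the log2 scale, and 2 lower, the ATP synthase subunit ATP5F1D at -0.78 and the complex I subunit NDUFAB1 at -0.60.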

How the data were processed

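RNA-seq of 8 libraries in 4 groups of 2 was analysed. According to the labels and methods, the authors aligned reads to hg38 with HISAT2 and obtained a count for each gene model with HTSeq. The deposited table gives raw counts and TPM for 38637 genes. The overlap mode, strand setting and annotation of the counting are not given in the sources used here. TPM was checked to be the count per listed length, scaled to the library.

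The test was that of edgeR 4.0.16 under R 4.3.3 (quasi-likelihood, TMM, filterByExpr with a minimum count of 10), on the 4 libraries compared, two-sided, with Benjamini-Hochberg adjustment over all genes tested. Standard errors were taken from the test statistic. Alternatives were DESeq2 1.42.0, its size factors, normalization without mitochondrial genes, no low-count filter, unadjusted p-values, no fold limit, 1 fit over 8 libraries, a replicate block and leaving out each library. The code was tested on simulated data. BLAST 2.17.0 was used to find identical stretches in the nuclear chromosomes.

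Named genes are both rRNAs, the 3 tRNAs of highest mean count, up to 3 called genes per list, direction and comparison, and the 3 MTRNR2L genes of highest mean count. The remaining mitochondrial genes, POLRMT under GSK-LSD1, and single genes named for their neighbours or extremes were chosen after their values were seen. The members and lists were chosen with earlier results of these data known. Same-numbered libraries were not treated as pairs, since the labels do not say what the numbers mean. With 2 libraries against 2, an exact permutation test cannot go below p = 0.333, so shares and ratios were given without a test.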

Additional observations from a re-analysis of the deposited data

How the results depend on the processing

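Each group held 2 libraries, and leaving out 1 reversed the sign of 7 of the 8 genes named for EBF2-OE against Vector. At 82 to 201 counts per library for TRNM, small changes of the rarer tRNAs were not detectable. Of the 7 tRNA genes under the low-count filter, TRNV had 0 counts in every library and entered no fit. The others entered only fits without the filter or with a library left out.

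For GSK-LSD1 against Vehicle, the mitochondrial genes called higher went from 1 to 7 with no fold limit and to 0 in 1 fit over 8 libraries. Over all genes, the share called higher went from 2.53% to 9.86% and to 0.513%. The mitochondrial genes called lower went from 0 to 2 without the low-count filter and to 1 with no fold limit. The 2 were TRNN, with 46 and 0 counts in Vehicle 1 and 2, and TRNC, with 1 and 27. Over all genes, the share called lower went from 2.04% to 1.47% and to 8.87%. On leaving out a library, the median log2 fold change of the 17 genes ran from -0.04 to 0.08. For Vector against Vehicle, those called higher went from 0 to 2 without the filter and to 0 to 6 on leaving out a library. Those called lower went from 0 to 3 without the filter, to 1 each by DESeq2, unadjusted p, no fold limit and the fit over 8 libraries, and to 0 to 10 on leaving out a library. The main test of Vector against Vehicle called 5.79% of all genes higher and 10.2% lower. Without the filter, with 22 mitochondrial genes tested, these shares were 4.63% and 8.66%. The share called lower was 9.71% by DESeq2, 14.2% by unadjusted p, 13.2% with no fold limit and 10.7% in the fit over 8 libraries. For EBF2-OE against Vector and for the difference of effects, the counts of mitochondrial genes called stayed at 0 under every alternative run. Over all genes, the share called in 1 direction was at most 0.733% in the former and 0.727% in the latter. The cause was not tested.

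Leaving out RNR2, an alternative chosen after seeing the data, changed the difference in mitochondrial share from 0.0886 to 0.0131 percentage points for GSK-LSD1 against Vehicle and from -0.409 to 0.00891 for Vector against Vehicle. The planned share over protein-coding genes gave no value, as no such gene was analysed here.

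Signs reversed on leaving out a library. In EBF2-OE against Vector the log2 fold changes ran from -0.25 to 0.45 for RNR1, -0.14 to 0.39 for RNR2, -0.12 to 0.43 for TRNS1, -0.041 to 0.79 for TRNE, -0.32 to 0.75 for TRNG, -0.35 to 0.83 for TRNM and -0.33 to 0.40 for TRND. In GSK-LSD1 against Vehicle they ran from -0.22 to 0.11 for TRNI, -0.12 to 0.068 for TRNS1, -0.19 to 0.19 for TRND, -0.51 to 0.022 for TRNL2 and -0.065 to 0.028 for TRNT. In Vector against Vehicle they ran from -0.054 to 0.65 for RNR1, -0.46 to 0.38 for TRNE and -0.86 to 0.22 for TRNG. For the difference of effects they ran from -0.44 to 0.26 for RNR1 and -0.23 to 0.30 for RNR2.

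The replicate block, with deviations of same-numbered libraries correlated at 0.347 for EBF2-OE with Vector and -0.0455 for GSK-LSD1 with Vehicle, left 0 mitochondrial genes called in the first and 1 higher in the second, and turned TRND to 0.0044 in the first. In the second, RNR2 no longer passed with no fold limit (adjusted p 0.110 by edgeR), and the other 7 genes did. Of all genes, the block called 0.0257% higher and 0.00643% lower in the first comparison, and 2.62% higher and 2.14% lower in the second. It changed no other sign among the genes named.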

Other observations

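The 6 transfer RNA genes between listed neighbours were near 0 in most libraries, but 3 of them, which form 1 cluster on the reverse strand, each stood out in a single library of its own. TRNA, the alanine tRNA, had 21 counts in Vector 2, 1 count in GSK-LSD1 1 and 0 in the other 6. TRNN, the asparagine tRNA, had 46 counts in Vehicle 1 and 0 to 2 in the other 7. TRNC, the cysteine tRNA, had 27 counts in Vehicle 2 and 0 or 1 in the other 7. Of the 150-base stretches overlapping these genes, 34.4%, 41.0% and 27.9% occur identically in the nuclear chromosomes of hg38, the highest shares among the 24 genes, and whether the counts came from nuclear copies was not tested.

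TRNP kept apart from the other tested genes in several comparisons. Relative to each library's sum, its level in Vector 3 was 0.953 times that in Vector 2. In EBF2-OE 3 it was 0.964 times that in EBF2-OE 2, and the other 16 genes were above 1 in both pairs. With all 8 libraries normalized together, TRNP was at 35.5 and 35.3 CPM in Vector 2 and 3 and at 41.3 and 39.8 in EBF2-OE 2 and 3. It lies at the edge of the control region, faces no listed gene on that side and is read from the reverse strand, and on leaving out each library in turn its log2 fold change in EBF2-OE stayed between 0.18 and 0.22.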
